A study of Mus musculus with 3 samples.

Results

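The genes of 9 secreted signals of the transforming growth factor beta superfamily were examined for NKX2-5 occupancy in the embryonic mouse heart. They were 6 bone morphogenetic protein (BMP) genes, Bmp2, Bmp4, Bmp5, Bmp6, Bmp7 and Bmp10, and the 3 TGF-beta genes Tgfb1, Tgfb2 and Tgfb3, out of 22350 protein-coding genes on 20 chromosomes. An enriched region, or peak, was assigned to a gene when its midpoint lay within 100 kb of the gene body in the GENCODE M1 annotation of mm9. Distances are given below from the annotated gene start unless stated otherwise, and one peak can lie within 100 kb of several genes.

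Chromatin immunoprecipitation followed by sequencing was done on wild-type hearts of the Parkes strain at stage E11.5, with an antibody against NKX2-5, a homeodomain transcription factor of the cardiac lineage. The series holds 2 such ChIP libraries, S1 and S4, and 1 Input library, which was not analysed here. The same strain, stage and tissue apply to all 3 samples, no treatment or mutant allele is given, and the labels do not say whether S1 and S4 came from separate collections of hearts. Each list gives the position of a peak and a score, which is the negative log10 of the peak caller's p-value in that library multiplied by 10, and ran from 140 to 3100. S1 held 4418 peaks and S4 held 5441. Read numbers were not used and sequencing depth is unknown. A difference in score or width between the libraries cannot be told apart from a difference in depth. Whole hearts contain several cell types, so a peak cannot be placed in myocardium, endocardium or cushion mesenchyme. Peak lists carry no RNA, and the tissue was checked by loci only. All 6 cardiomyocyte genes looked at (Nppa, Actc1, Myh6, Tnnt2, Ryr2 and Tnni3) had a region shared by both libraries within 100 kb. Of 7 genes of liver, nerve, pancreas and blood 1 had such a region, Ins2, and 24.3% of all protein-coding genes did. The nearest protein-coding start was that of Tnnt1 for the Tnni3 region and that of Igf2 for the Ins2 region.

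BMP and TGF-beta ligands are secreted as dimers and bind type I and type II receptor kinases at the cell surface. The receptors phosphorylate SMAD proteins, which enter the nucleus with SMAD4 and change transcription, with separate sets of receptor SMADs for the BMP and the TGF-beta branch. In the developing heart these signals pass between myocardium and endocardium. Myocardial BMPs take part in patterning the atrioventricular canal and the outflow tract, BMP10 supports growth of the trabeculated ventricle, and TGF-beta ligands take part in the transition of endocardial cells to the mesenchyme of the cardiac cushions.

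Regions covered by a peak in both libraries, hereafter shared regions, lay within 100 kb of 5 of the 9 ligand genes, and there were 8 such regions. Bmp7, Bmp10 and Tgfb1 had 2 each, and Bmp6 and Tgfb2 had 1 each. No peak of either library lay within 100 kb of Bmp2, Bmp4, Bmp5 or Tgfb3. The sequence at the centre of a shared region shows which short recognition sequences lie under it, and is given for the 6 regions that held a core of the NKX2-5 or the MEIS1 site. Each window is 201 bases of the plus strand of mm9, 100 bases to either side of the middle of the bases that both peaks have in common. Capitals mark AAGTG, the core of the NKX2-5 site, and TGACA, the core of the site of the homeodomain protein MEIS1, on either strand (CACTT and TGTCA on the other strand). The windows lie at chr6:87374177-87374377, upstream of Bmp10, and chr6:87393246-87393446, downstream of it, at chr2:172688490-172688690, past the end of Bmp7, and chr2:172701422-172701622, in an intron of Bmp7, at chr13:38416566-38416766, upstream of Bmp6, and at chr1:188379462-188379662, past the end of Tgfb2.
Bmp10 upstream: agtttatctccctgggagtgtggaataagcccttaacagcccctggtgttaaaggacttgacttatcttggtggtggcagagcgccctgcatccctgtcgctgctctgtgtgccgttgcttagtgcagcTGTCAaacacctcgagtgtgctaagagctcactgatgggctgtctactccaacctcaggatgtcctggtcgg
Bmp10 downstream: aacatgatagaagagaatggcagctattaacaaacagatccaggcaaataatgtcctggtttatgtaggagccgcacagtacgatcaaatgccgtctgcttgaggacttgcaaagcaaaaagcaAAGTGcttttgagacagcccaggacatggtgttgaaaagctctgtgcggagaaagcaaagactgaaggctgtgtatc
Bmp7 past the end: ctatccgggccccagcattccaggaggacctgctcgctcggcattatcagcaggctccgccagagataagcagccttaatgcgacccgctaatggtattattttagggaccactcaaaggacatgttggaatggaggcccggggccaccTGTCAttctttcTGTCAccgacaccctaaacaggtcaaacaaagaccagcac
Bmp7 intron: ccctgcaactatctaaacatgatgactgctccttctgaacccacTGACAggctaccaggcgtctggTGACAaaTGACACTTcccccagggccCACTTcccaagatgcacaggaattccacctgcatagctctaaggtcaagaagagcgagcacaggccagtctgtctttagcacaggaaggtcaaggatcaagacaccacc
Bmp6 upstream: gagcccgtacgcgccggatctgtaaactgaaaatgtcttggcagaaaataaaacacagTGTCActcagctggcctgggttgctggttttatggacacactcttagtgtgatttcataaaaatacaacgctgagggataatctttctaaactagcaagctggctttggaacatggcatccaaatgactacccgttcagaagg
Tgfb2 past the end: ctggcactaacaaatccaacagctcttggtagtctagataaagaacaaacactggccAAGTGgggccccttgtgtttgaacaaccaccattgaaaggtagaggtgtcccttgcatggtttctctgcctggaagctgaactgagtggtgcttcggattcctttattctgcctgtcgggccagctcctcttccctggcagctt

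Of the 8 windows, 3 held AAGTG, against 64.0% of all shared regions and 39.4% of windows 2 kb to either side of them. TGACA was held by 4, against 64.5% and 40.1%. Both cores were in 1 window and neither was in 2, and these combinations were not counted over all shared regions. The window with both was the Bmp7 intron, where 3 TGACA and 2 AAGTG matches lay together, an adjoining pair sharing 2 bases in TGACACTT. Bmp10 upstream, Bmp7 past the end and Bmp6 upstream held TGACA without AAGTG, and Bmp10 downstream and Tgfb2 held AAGTG without TGACA. The 2 windows with neither were both near Tgfb1.

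Peaks of S1 near the ligand genes numbered 16 and those of S4 numbered 12, a mean of 14.0 ± 2.83 (SD, n = 2 libraries). With peaks of both libraries merged, they made 19 distinct regions. An S1 peak lay within 100 kb of 5 ligand genes, against 38.4% of all protein-coding genes, and an S4 peak lay near the same 5, against 44.7%. A shared region was present near 5 of 9, against 24.3% of all protein-coding genes, and 2 or more were present near 3 of 9, against 6.94%. Among all genes, 75.7% had no shared region, 17.3% had 1, 4.87% had 2, 1.37% had 3 and 0.698% had 4 or more. The ligand genes were longer, with a median of 22.3 kb against 15.4 kb, and so were searched over longer windows. Their windows together spanned 2.30 Mb and held 3.48 shared regions per Mb, against a mean of 1.41 per Mb over all protein-coding genes. With 9 genes chosen for their function in a single condition, no test was made of this difference. The map of peaks by gene shows the arrangement.

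**Figure D1:**
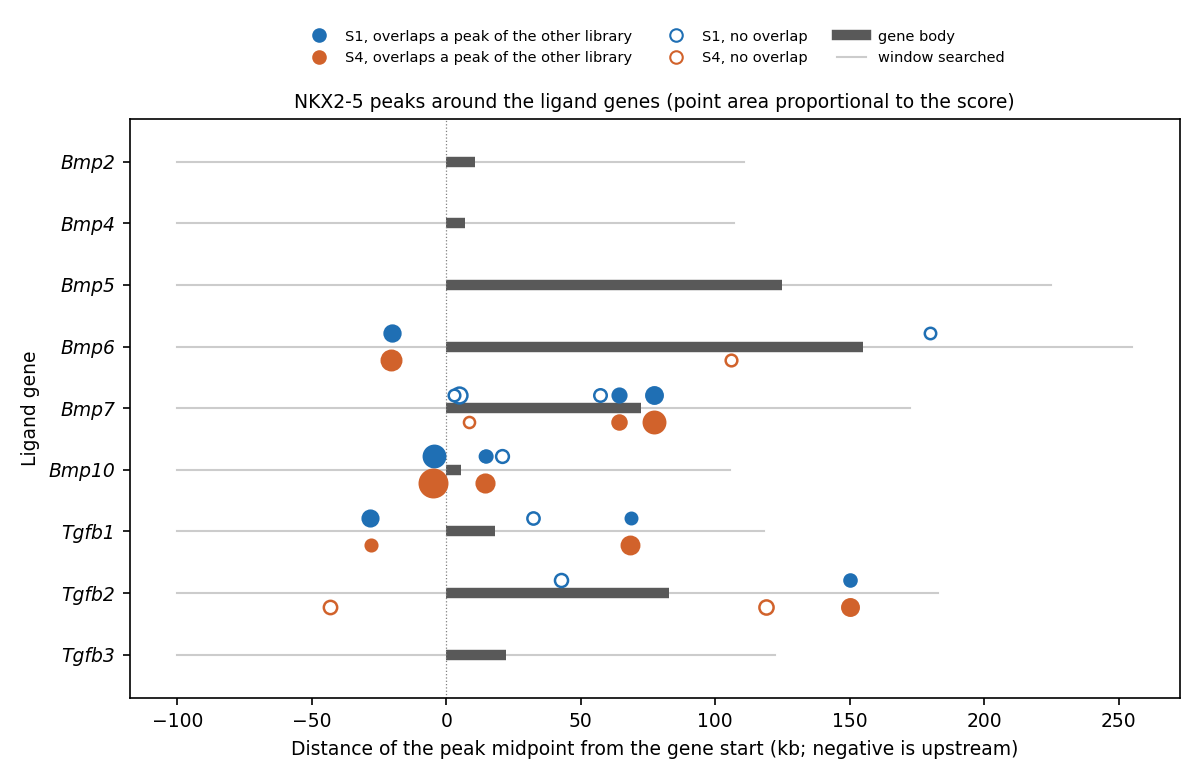
Peaks of S1 (blue, above the line) and S4 (orange, under the line) around each of the 9 ligand genes, at the distance of the peak midpoint from the gene start in kb, with positive values in the direction of transcription. Dark bars are gene bodies, thin lines the windows searched, filled points peaks that overlap one of the other library, and point area is proportional to the score. Filled points of both colours stand together at 5 genes, the largest pair 4.72 kb upstream of Bmp10, and 4 genes have no point.

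Bmp10, made in the trabecular myocardium, is a short gene of 5.51 kb on the plus strand (chr6:87378996-87384506) and had the highest-scoring region of all the ligand genes. The peak in S1 lay at chr6:87373797-87374757, 961 bp wide with a score of 526, and ranked 498 of 4418 (the top 11.3%). The S4 peak lay at chr6:87373584-87374886, 1303 bp wide with a score of 869, and ranked 274 of 5441 (the top 5.04%). The S4 peak enclosed the whole S1 peak, the midpoints were 42 bp apart, and the region was intergenic, 4.72 kb upstream of Bmp10. The stretch of both peaks held 3 AAGTG and 3 TGACA matches, of which a single TGACA lay in the window shown above, 31 bp from the midpoint.

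The second Bmp10 region lay 14.3 kb downstream of the start, 8.84 kb past the end of the gene, in intergenic sequence. There a single S4 peak (chr6:87392841-87393828, 988 bp, score 358) overlapped a pair of narrow S1 peaks, chr6:87393183-87393509 (327 bp, score 147) and chr6:87393624-87394150 (527 bp, score 161). Both S1 scores were near the lowest of the list, whereas the S4 peak was in the top 23.1% of its list. The window shown above is centred on the longer overlap, the one with the first of these S1 peaks. A further S1 peak, 20.8 kb downstream of the Bmp10 start (chr6:87399407-87400153, score 188), had no S4 partner, the nearest S4 peak being 6.45 kb away. Another 5 protein-coding genes reach into the window of Bmp10, among them the gastrokine genes Gkn1, Gkn2 and Gkn3, but the nearest protein-coding start to both shared regions was that of Bmp10.

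Bmp7, one of the BMPs with overlapping roles in cushion and chamber development, spans 72.3 kb on the minus strand (chr2:172693513-172765822) and had the most peaks, 5 in S1 and 3 in S4. The stronger shared region lay in intergenic sequence 4.92 kb past the end of the gene, 77.2 kb from its start. S1 covered it with 970 bp (chr2:172688106-172689075, score 309) and S4 with 1109 bp (chr2:172688008-172689116, score 529). S4 thus had the higher score, in the top 12.2% of its list against the top 27.4% in S1. Its TGACA matches numbered 5 and its AAGTG matches 3 in the stretch of both peaks.

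The second shared region of Bmp7 lay in an intron, 64.3 kb from the start. The peaks were chr2:172701196-172701848 in S1 (653 bp, score 215) and chr2:172701103-172701893 in S4 (791 bp, score 226), and their midpoints were 24 bp apart. Scores in the libraries were closest here, with a ratio of S4 to S1 of 1.05, and both ranks were at the top 49.0% of their list. Bmp7 was the only protein-coding gene within 100 kb of either of its shared regions.

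Another 4 peaks lay in introns of Bmp7 without a partner. In S1 they scored 289, 180 and 155, at 4.69 kb (chr2:172760762-172761497), 57.3 kb and 2.83 kb from the start. In S4 the single one scored 142, at 8.43 kb (chr2:172757090-172757691). The S1 peak of score 289 was the highest-scoring of the ligand peaks found in a single library, and the nearest S4 peak, the one of score 142, lay 3.74 kb from it. The introns near the Bmp7 start thus held peaks of both libraries that did not overlap.

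Bmp6, which acts with Bmp7 in the outflow tract cushions, is the longest of the ligand genes at 155 kb (chr13:38436995-38592183, plus strand). Its shared region was intergenic, 20.3 kb upstream of the start, and scored 288 in S1 (chr13:38416356-38416976, 621 bp) and 437 in S4 (chr13:38416013-38416976, 964 bp). Both peaks ended at the same base, and the S4 peak extended farther on the side away from the gene, which put the midpoints 172 bp apart. A weak S4 peak (chr13:38542334-38542945, score 157) lay in a Bmp6 intron 106 kb from the start, and a weak S1 peak (chr13:38616966-38617349, score 150) lay 25 kb past the gene end. The S1 peak was in an intron of Txndc5, 3.54 kb from the start of that gene. Neither had a partner.

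Tgfb2, a TGF-beta ligand required for cushion and outflow tract remodelling, spans 82.8 kb on the minus strand (chr1:188447065-188529871). Its shared region lay 67.5 kb past the gene end, 150 kb from the start, in intergenic sequence with no other protein-coding gene within 100 kb. S1 scored 168 (chr1:188379142-188380054, 913 bp) and S4 scored 311 (chr1:188379106-188379983, 878 bp). The S4 score was 1.85 times that of S1, although the intervals were nearly the same, the stretch in common being 92.2% of the S1 peak and 95.9% of the S4 peak. The other 3 peaks near Tgfb2 had no partner. They were an S1 peak in an intron (42.5 kb from the start, score 196), an S4 peak 35.9 kb past the gene end (score 232) and an S4 peak 43.4 kb upstream in the promoter of Rrp15 (score 205).

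Tgfb1, a TGF-beta ligand known for endothelial and immune functions, spans 18.1 kb (chr7:26472021-26490096, plus strand) in the most gene-dense of the 9 windows, which 11 other protein-coding genes reach. Both of its shared regions were at promoters of other genes. The first lay 28.2 kb upstream of Tgfb1, with a score of 282 in S1 (chr7:26443500-26444047, 548 bp) and 155 in S4 (chr7:26443628-26444345, 718 bp). Its centre was 57 bp from the start of Bckdha and also within 1 kb of a transcript start of Exosc5. The second lay 68.6 kb downstream of the Tgfb1 start and 869 bp from the start of Hnrnpul1, with a score of 151 in S1 (chr7:26540355-26540882, 528 bp) and 349 in S4 (chr7:26539974-26540987, 1014 bp). At each of these regions a library had a score near the lowest of its list, S4 at the first and S1 at the second. An S1 peak of score 173 without a partner lay 19 bp from the start of Ccdc97. None of these peaks was nearest to the start of Tgfb1 itself, whereas the ligand gene was the nearest protein-coding start for the 6 shared regions of Bmp6, Bmp7, Bmp10 and Tgfb2.

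The 4 genes without a peak were not alike in how far the nearest shared region lay. For Bmp2, a myocardial signal of the atrioventricular canal (chr2:133377895-133388621), it lay 185 kb upstream, and scored 459 in S1 (chr2:133192961-133193597, 637 bp) and 736 in S4 (chr2:133192685-133193756, 1072 bp). These scores were above those of every ligand region inside the limit except the one upstream of Bmp10. The nearest protein-coding start to that region was also that of Bmp2, and no other protein-coding gene reached into the 100 kb windows of Bmp2. For Bmp5 (chr9:75623171-75748117) the nearest shared region lay 264 kb upstream in an intron of Tmod3, scoring 267 in S1 and 633 in S4. For Tgfb3 (chr12:87397694-87419991) it lay 396 kb upstream in an intron of Esrrb, with scores of 212 and 251. For Bmp4, a signal of the outflow tract and second heart field (chr14:47003195-47010344), it lay 427 kb downstream, with scores of 221 and 240. S4 had peaks without a partner nearer to both of these genes, 285 kb upstream of Bmp4 (score 152) and 237 kb downstream of Tgfb3 (score 318).

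The limit of 100 kb divided few peaks. The farthest members inside it were the shared peaks of Tgfb2, 67.5 kb from the gene body, scoring 168 in S1 and 311 in S4. The nearest peak outside it was an S4 peak without a partner, 100450 bp from Bmp10, with a score of 143 (chr6:87278168-87278925, 758 bp), and the next was an S4 peak of score 182, 174 kb from Bmp6.

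Overlap between the libraries was set beside that of the whole lists. Of the S1 peaks near ligand genes 9 of 16 overlapped an S4 peak (56.2%, 95% Clopper-Pearson interval 29.9 to 80.2), against 58.9% of all S1 peaks. Of the S4 peaks 8 of 12 overlapped an S1 peak (66.7%, 34.9 to 90.1), against 47.0% of all S4 peaks. Both whole-list shares lay inside the intervals, which cover counting error only. The S1 peaks without a partner scored a median of 180 (150 to 289, n = 7) and those with one 215 (147 to 526, n = 9), against medians of 171 and 279 in the whole S1 list. In S4 the medians were 181 (142 to 232, n = 4) without and 353 (155 to 869, n = 8) with a partner, against 183 and 315. All 4 ligand peaks found only in S4 were at or under 232, while 4 of the 9 S1 peaks with a partner were at or under 168, and in both libraries the ranges of peaks with and without a partner overlapped.

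**Figure D2:**
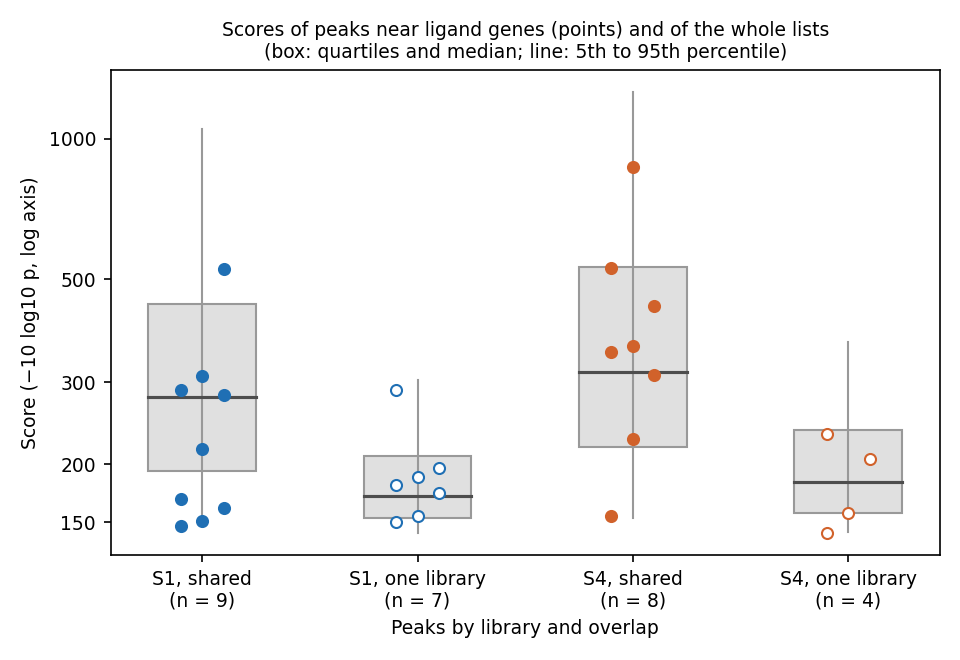
Scores (10 times the negative log10 of p, log axis) of the ligand peaks as points, by library and by overlap with the other library, over boxes of the whole list (quartiles and median, with a line from the 5th to the 95th percentile). Most points lie within the boxes. The peaks upstream of Bmp10, at 526 in S1 and 869 in S4, stand above the boxes of their groups, and 4 of the 9 shared S1 points lie under theirs.

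Over all peaks near ligand genes, scores in S1 had a median of 184 (147 to 526, n = 16) against 212 in the whole list, and 6 of 16 were above that list median. In S4 the median was 271 (142 to 869, n = 12) against 223, and 8 of 12 were above. Widths had a median of 600 bp in S1 (327 to 970) against 625 bp, and 921 bp in S4 (602 to 1303) against 783 bp. The ligand peaks therefore stood somewhat lower than the list in S1 and higher in S4, a difference in direction that was not tested.

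At the 8 shared regions the score was higher in S4 at 7 and higher in S1 at 1, the region at the Bckdha and Exosc5 promoters near Tgfb1. Among all 2546 shared regions 60.6% were higher in S4. The median log2 ratio of the S4 to the S1 score was 0.75 (−0.87 to 1.21, n = 8) at the ligand regions, against 0.16 over all shared regions. By region the log2 ratio was 0.73 and 1.15 upstream and downstream of Bmp10, 0.07 in the Bmp7 intron and 0.77 past its end, 0.60 at Bmp6, 0.89 at Tgfb2, and −0.87 and 1.21 near Tgfb1. The order of the regions by score was the same in both libraries for the highest 3, upstream of Bmp10, past the end of Bmp7 and upstream of Bmp6, and differed after these. Their median score was 248 in S1 and 353 in S4, against 280 and 315 for all shared regions.

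**Figure D3:**
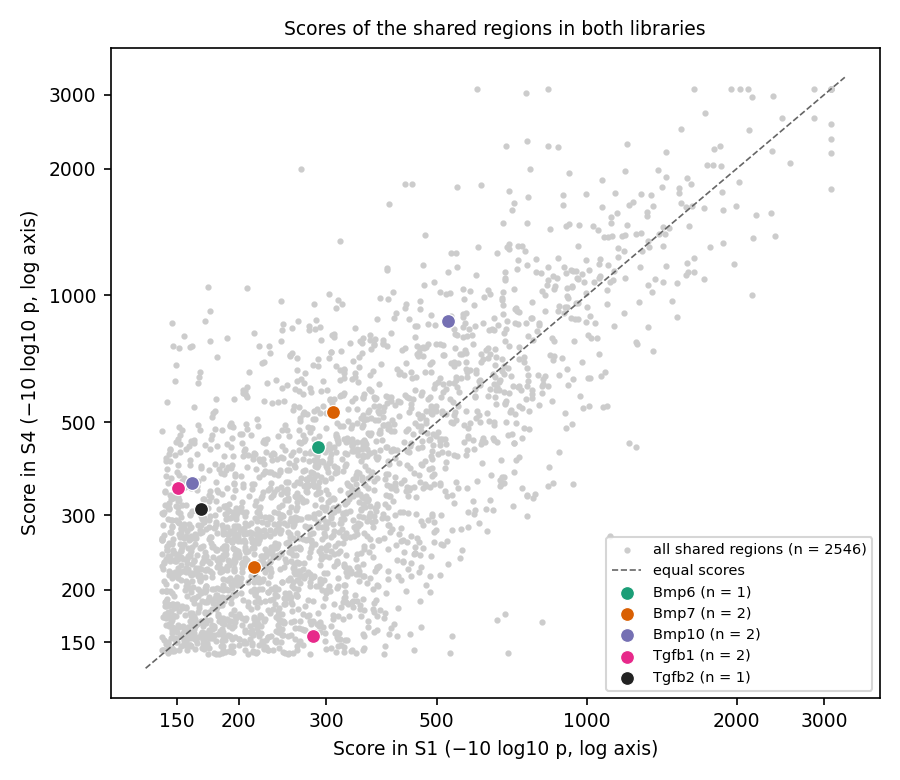
Score of each shared region in S1 (x) and S4 (y), both as 10 times the negative log10 of p on log axes, for all 2546 shared regions (grey) and the 8 near ligand genes (coloured by gene), with a dashed line of equal scores. Among the coloured points 7 lie above the line and 1, near Tgfb1, lies under it. The Bmp10 point at 526 and 869 is the highest of the ligand points on both axes.

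Positions relative to genes were read at the midpoint. Of the 8 shared regions 5 were intergenic, 1 was in an intron, 2 were at promoters (within 1 kb of any annotated transcript start) and 0 were in exons. None of the 8 was at a promoter of a ligand gene. Peaks of S1 were at promoters in 3 of 16 cases, in introns in 6 and in intergenic sequence in 7, and those of S4 in 3, 3 and 6 of 12. In the whole lists promoters held 21.3% of S1 and 22.7% of S4 peaks, introns 39.5% and 39.2%, and intergenic sequence 36.3% and 35.1%.

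The recognition sequences were counted as exact matches on both strands within 100 bp of the midpoint. AAGTG was present in 3 of 8 ligand windows (37.5%, 8.52 to 75.5), against 64.0% of all shared regions and 39.4% of windows 2 kb to either side of them. TGACA was present in 4 of 8 (50%, 15.7 to 84.3), against 64.5% and 40.1%. The longer NKX2-5 sequence TNAAGTG, which contains AAGTG, was found in 0 of 8 (0 to 36.9), against 32.4% of all shared regions and 11.3% of flanks. The spaced pair GTGNTGACA, which contains TGACA, was also found in 0 of 8, against 9.54% and 0.864%, and AAGTGACA, in which the cores overlap, in 0 of 8, against 2.32% and 1.10%. Each of these intervals contained the share of all shared regions. Bases outside the windows gave more matches. Over the whole stretch of both peaks, AAGTG was present in 7 of 8 ligand regions and TGACA in 6 of 8, against 89.9% and 86.8% of all shared regions, TNAAGTG was present in 3 of 8, against 54.7%, and GTGNTGACA in 1 of 8, against 15.4%. Where several peaks overlapped, as downstream of Bmp10, only the longest overlap was counted in these shares. A match is a string of letters and not a measured binding site, and G and C made up a median of 51.2% of the ligand windows (44.8 to 54.2), against 49.8% over all shared regions.

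Matches of AAGTGTCA, AAGTGACA and GTGNTGACA were also looked for over every whole ligand peak, and 6 were found. They are given with 25 bases on each side, plus strand of mm9, with the match in capitals. TGACACTT, which reads AAGTGTCA on the minus strand, has a TGACA and an AAGTG in opposite orientations that share bases. Inside the stretch of both peaks it was found in 2 of the 8 regions, at Bmp6 (chr13:38416521-38416578, 116 bp from the midpoint) and in the Bmp7 intron (chr2:172701470-172701527, 23 bp from the midpoint), against 5.62% of all shared regions. This sequence was added to the search after it had been seen there. It also lay in the S4 peak downstream of Bmp10 (chr6:87393525-87393582), between the pair of S1 peaks. AAGTGACA, on the minus strand as TGTCACTT, lay in the same S4 peak and in the second of those S1 peaks (chr6:87393794-87393851), 65 bp from the midpoint of the S1 peak and outside the overlap counted above. GTGNTGACA, on the minus strand as TGTCATCAC, lay in both peaks past the end of Tgfb2 (chr1:188379652-188379710, 119 bp from the midpoint) and in the Bmp7 intron peak found in S4 alone (chr2:172757102-172757160).
Bmp6 upstream, long match: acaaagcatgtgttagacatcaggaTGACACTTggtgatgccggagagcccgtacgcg
Bmp7 intron, long match: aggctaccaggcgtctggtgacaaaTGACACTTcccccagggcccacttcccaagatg
Bmp10 downstream, S4 peak: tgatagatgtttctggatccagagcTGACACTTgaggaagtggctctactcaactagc
Bmp10 downstream, second S1 peak and S4 peak: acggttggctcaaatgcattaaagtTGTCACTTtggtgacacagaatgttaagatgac
Bmp7 intron, S4 peak: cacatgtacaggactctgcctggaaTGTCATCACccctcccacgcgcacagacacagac
Tgfb2 past the end, long match: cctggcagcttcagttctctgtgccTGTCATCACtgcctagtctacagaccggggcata

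Ligand peaks of a single library held the cores too. AAGTG was within 100 bp of the midpoint in 5 of 7 such S1 peaks and 3 of 4 such S4 peaks, against 56.6% and 53.4% of all peaks without a partner. TGACA was present in 5 of 7 and 2 of 4, against 50.6% and 50.3%.

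The rest of the pathway was read in the same way, in 5 lists with 74 genes, of which 28 (37.8%) had a shared region within 100 kb, against 24.3% of all protein-coding genes. Among other ligands of the superfamily the count was 6 of 24 (25%). Highest were Nodal, which patterns the left-right axis, with a region 72.7 kb upstream in an intron of another gene (scores 939 in S1 and 1143 in S4), Bmp8b (360 and 444) and Gdf10 (327 and 423). The Bmp8b region lay 54.2 kb upstream in an intron of Trit1, which also had the nearest protein-coding start. The Gdf10 region lay 97.1 kb upstream in intergenic sequence. The Nodal region, whose nearest protein-coding start was that of Rpl27a-ps1, scored above every region of the 9 ligand genes in both libraries.

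Receptors had a shared region in 6 of 13 cases (46.2%), with a median gene length of 90.4 kb. The strongest were in an intron of the type I BMP receptor gene Bmpr1b, 43.8 kb from its start (1879 in S1 and 1599 in S4), 67.4 kb downstream of the start of the activin receptor gene Acvr2b (1065 and 1218), and 238 kb from the start of Tgfbr3, the TGF-beta co-receptor betaglycan (670 and 628). The nearest protein-coding start was that of Exog for the Acvr2b region and that of Cdc7 for the Tgfbr3 region. SMAD genes had a shared region in 3 of 8 cases (37.5%). These were the inhibitory Smad7, with a region 47.6 kb upstream (1007 and 635), the TGF-beta receptor SMAD gene Smad3, in an intron 34.9 kb from the start (322 and 954), and the inhibitory Smad6, 89.0 kb downstream of the start (186 and 271).

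Extracellular antagonists and modulators had a shared region in 6 of 17 cases (35.3%), led by the latent TGF-beta binding protein genes Ltbp3 (2028 in S1 and 3100 in S4) and Ltbp2 (687 and 562), and by the BMP antagonist gene Chrdl1 (444 and 551). Genes known to respond to BMP or TGF-beta had one in 7 of 12 cases (58.3%). Highest were Tbx3 (1862 and 2031, 18.9 kb upstream) and Tbx2 (823 and 643, 32.7 kb upstream), T-box repressors of the atrioventricular canal, and Id3 (566 and 492, 4.49 kb upstream), an inhibitor of basic helix-loop-helix factors. These genes were named for their scores. The nearest protein-coding start was not always theirs, as with Isca2 for the Ltbp2 region. The lists differ in gene length and the shares were not tested against each other.

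**Figure D4:**
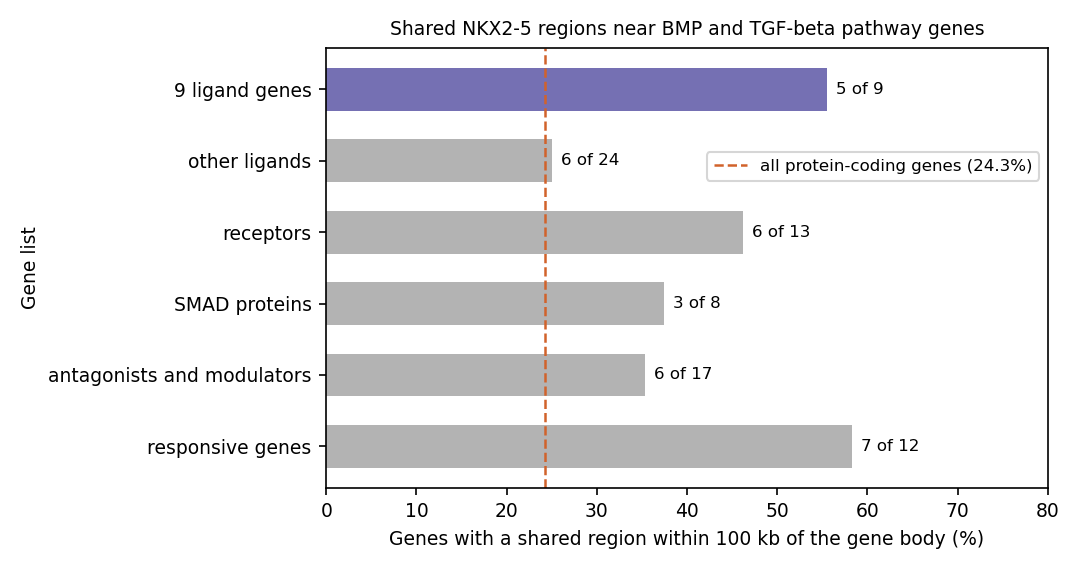
Percentage of genes with a shared region within 100 kb of the gene body, for the 9 ligand genes and 5 lists of other pathway genes, with the counts beside the bars and a dashed line at 24.3% for all protein-coding genes. The ligand genes (5 of 9) and the responsive genes (7 of 12) have the longest bars, and other ligands (6 of 24) lie next to the line.

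In number of shared regions, 11 of the 74 pathway genes had at least the 2 found at Bmp7, Bmp10 and Tgfb1. Ltbp3, Tgfbr3 and Smurf2 had 4, Smad7, Bmpr1a and Ctgf had 3, and Ltbp2, Fstl1, Nodal, Tbx3 and Id3 had 2. The likeness is one of counts in a single pair of libraries.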

How the data were processed

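NKX2-5 was precipitated from sonicated chromatin of fixed hearts. By the account of the study, sequencing was on a Genome Analyzer IIx, alignment to mm9 with BOWTIE and peak calling with MACS. The submitters' processing notes also name CASAVA 1.4. The BOWTIE version, the settings and the use of the Input as control are not given in the sources used here. The authors deposited 1 peak list for each ChIP library, called separately, with positions in bp and a score per peak. The deposited score was read from its values as 10 times the negative log10 of p. It is not scaled between libraries.

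All peaks lay within the chromosomes of NCBIM37 (mm9), and positions are counted from 1. Peaks overlapping by at least 1 bp were shared, and pairs that used the same peak were joined as 1 region, scored by its highest peak in each library. Genes were protein-coding genes of GENCODE M1, and sequences came from NCBIM37. All 9 ligand genes were named. Of the pathway lists up to 3 genes each were named, by the lower score of both libraries, together with those having as many shared regions as the ligand genes. The ligand genes, the other lists and the motifs were chosen with earlier results of these data known. The position of the Ltbp3 region is not reported here. Of 8 marker genes of other tissues, Sox1 was not matched. With 1 condition and no read counts, no test was made. The confidence level of the Clopper-Pearson intervals was 0.95. The procedures were tested on simulated data. Calculations used Python 3.11.15, numpy 2.4.6, pandas 2.3.3, scipy 1.17.1 and matplotlib 3.10.9.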

Additional observations from a re-analysis of the deposited data

How the results depend on the processing

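Counts and medians were recomputed under other distance limits, overlap rules, score minimums and motif windows. Of 63 recomputed summary values 54 stayed in place, 9 moved and 0 reversed, and of 72 counts for single genes 61 were unchanged. In place meant within 1.5-fold for a count, 0.1 for the log2 ratio and the interval for a share. For a median score it meant a change smaller than the SD of the medians of the 2 libraries. Keeping only peaks that scored 200 or more left a mean of 7.50 peaks, 4 shared regions and 3 ligand genes with one, Bmp6, Bmp7 and Bmp10, and raised the median score to 288 in S1 and 349 in S4, as the filter itself does. Distances from the gene start in place of the gene body also gave a median of 349 in S4 and left out the Tgfb2 region. A limit of 50 kb left 6 regions at 4 genes and removed Tgfb2, and one of 200 kb gave 10 regions at 6 genes and added Bmp2. Midpoints within 150 bp left 6 regions at 4 genes, without Bmp6 and with 1 at Tgfb1. AAGTG fell to 1 region with 25 bp on each side of the midpoint and rose to 7 over the whole stretch of both peaks, and TGACA fell to 0 with 25 bp. Either library alone gave 12 (S4) to 16 (S1) peaks, near 5 genes in each case. The unknown depth limits scores, widths and peak numbers, and weak regions such as those of Tgfb1 and Tgfb2 rest on the low end of a list. No paired analysis was possible because the series has 1 condition and the Input has no peak list here.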

Other observations

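Letters of sites for other cardiac factors were also counted in the ligand windows, as exact matches on both strands. GATAA, the core of the site of GATA factors, which bind DNA with NKX2-5 at many cardiac genes, was present in 4 of 8 windows (50%, 15.7 to 84.3), against 35.0% of all shared regions and 26.3% of flanks. The 4 were upstream of Bmp10, past the end of Bmp7, upstream of Bmp6 and past the end of Tgfb2. In 3 of them (Bmp10, Bmp7 and Bmp6) the same window held TGACA and lacked AAGTG. That lack held for the window only, since the stretch of both peaks had 3, 3 and 1 AAGTG matches there. The combination was not counted over all shared regions. The T-box core AGGTGT was present in 2 of 8 windows (25%, 3.19 to 65.1), upstream of Bmp10 and past the end of Tgfb2, against 13.8% of all shared regions and 11.8% of flanks. Its match near Tgfb2 lay 3 bp from the midpoint. Over the whole stretch of both peaks, GATAA was in 4 of 8 regions against 64.3% and AGGTGT in 4 of 8 against 33.2%. With 8 regions these intervals cover the shares of all shared regions, and no test was made.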
